A study of Mus musculus with 9 samples.

Results

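Interferon-stimulated genes are the genes that cells switch on when an interferon binds its receptor, and 43 of them were followed here in RNA sequencing of mouse duodenum. They were chosen by symbol, as genes widely known for this response, with earlier results of these data known. All 43 were found among the 48709 Ensembl genes of the count table. The duodenum, where the small intestine begins, was taken from 10-week-old male C57Bl6 mice (C57BL/6 J in the study's methods) 6 h after a dose by mouth of calcitriol and ZK, of calcitriol, or of vehicle, which was sunflower oil. Calcitriol (1,25D3) is the hormonal form of vitamin D and acts through the vitamin D receptor VDR, and ZK (ZK168281) is a VDR antagonist, an analog of calcitriol with a carboxylic ester. The question of the study was which transcripts calcitriol changes in the duodenum and how ZK alters that response. Each treatment has 3 libraries, labelled with the treatment and a number from 1 to 3, and per the study each is from a separate mouse. The labels name no difference between the libraries other than treatment and number, and no label states a genotype; the methods call C57BL/6 J the wild type.

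The signal of an interferon reaches the nucleus through receptors at the cell surface, the Janus kinases bound to them, and transcription factors, STAT2 and IRF9 among them. The type I and type III interferons are chiefly answered through a complex with STAT2 and IRF9 that binds the interferon-stimulated response element, and interferon gamma through the gamma-activated site. In the intestine, the epithelium is known for its response to type III interferon, and intraepithelial lymphocytes are a source of interferon gamma. The genes so induced encode sensors of viral RNA, enzymes and binding proteins that block viral replication, GTPases that attack vacuoles of parasites and bacteria, and parts of the machinery that shows peptides on MHC class I.

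The libraries held 22561400 to 41207455 counts. Levels are given as CPM after scaling of the libraries by the trimmed mean of M-values (TMM CPM). Members are ranked by level after division by the gene's exonic length in kilobases where the text says per kilobase. The choice of members of highest level to print, the highest genes of the other lists and all summed levels use TMM CPM not divided by length. Cyp24a1, which encodes the enzyme that inactivates calcitriol and is a classical VDR target, served as the check of the labels and went against them. It was at 4.05, 9.13 and 2.47 TMM CPM in libraries labelled calcitriol and ZK 3, calcitriol 3 and vehicle 3. Cyp24a1 was at 7633, 6425 and 7537 in calcitriol and ZK 2, calcitriol 2 and vehicle 2. It stood at 6.14, 2.5 and 2.7 in calcitriol and ZK 1, calcitriol 1 and vehicle 1. Cyp24a1 was thus high under all 3 treatment labels wherever the number was 2, and every direction between treatments given below rests on labels that Cyp24a1 contradicts. No library was moved, libraries are called by their labels, and the members are described both by treatment and by number, which are also the sets 1 to 3, 4 to 6 and 7 to 9 of the table's column headers. The labels do not say what the number marks, and no label gives a batch or a date. Read counts of the 3 number 1 libraries and of calcitriol 3 lay close to each other. Their pairs had a chi-square, averaged over genes, of 1.85 to 5.61, where 1 is sampling noise. The pair calcitriol and ZK 2 and vehicle 2 (3.69) and the pair calcitriol and ZK 3 and vehicle 3 (4.94) were as close, and every other pair, among them all pairs with calcitriol 2, was at 96.4 or more. No pair was within sampling noise, and each library was counted on its own because the study gives each as a separate mouse. Whether the close libraries are independent of each other was not tested. The p-values measure only the spread between these libraries, and that spread is narrow where libraries compared lie close.

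All 43 members had more than 100 reads over the 9 libraries and were tested, and 38 were above 1 TMM CPM in every library. The other 5, Gbp6, Ifi44, Mx1, Oas2 and Tgtp1, dipped below 1 TMM CPM in at least 1 library, and Tgtp1 had only 104 reads and Gbp6 only 213 over all libraries. On the scale of mean level per kilobase, the immunoproteasome subunit Psmb8 stood highest at 62.3 TMM CPM per kilobase. Isg15 followed at 43.2, Ifit1bl1 at 36.98, Ifi27 at 34.9, Oasl1 at 33.2 and Irf1 at 31.8, all per kilobase. Lowest per kilobase were Tgtp1 at 0.108 and Gbp6 at 0.112. Summed over the 43 members, the level was 1568, 1818 and 1570 TMM CPM under the labels calcitriol and ZK 2, calcitriol 2 and vehicle 2, 1553, 1516 and 1564 in calcitriol and ZK 3, calcitriol 3 and vehicle 3, and 1503, 1522 and 1501 in calcitriol and ZK 1, calcitriol 1 and vehicle 1. The sum of calcitriol 2 stood above all others, and those of the other 8 libraries lay within a range of 1501 to 1570. Scaled by total counts in place of TMM, the range of those 8 widened to 1358.1 to 1780.2 CPM. The sum joins roles that differed in direction, so close sums do not mean close levels of each role. Psmb8, Psmb9 and Tap1 together were at 447 to 477 TMM CPM in number 1 libraries and 310 to 342 in number 2 libraries. The oligoadenylate synthetases went the other way, at 172 to 176 TMM CPM in number 1 and 225 to 287 in number 2. The library with a member's highest level had number 2 for 25 members, number 3 for 16 and number 1 for 2, and it was calcitriol 2 for 19. The same counts were not made over all genes, so they are not shown to be particular to the members.

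**Figure D1:**
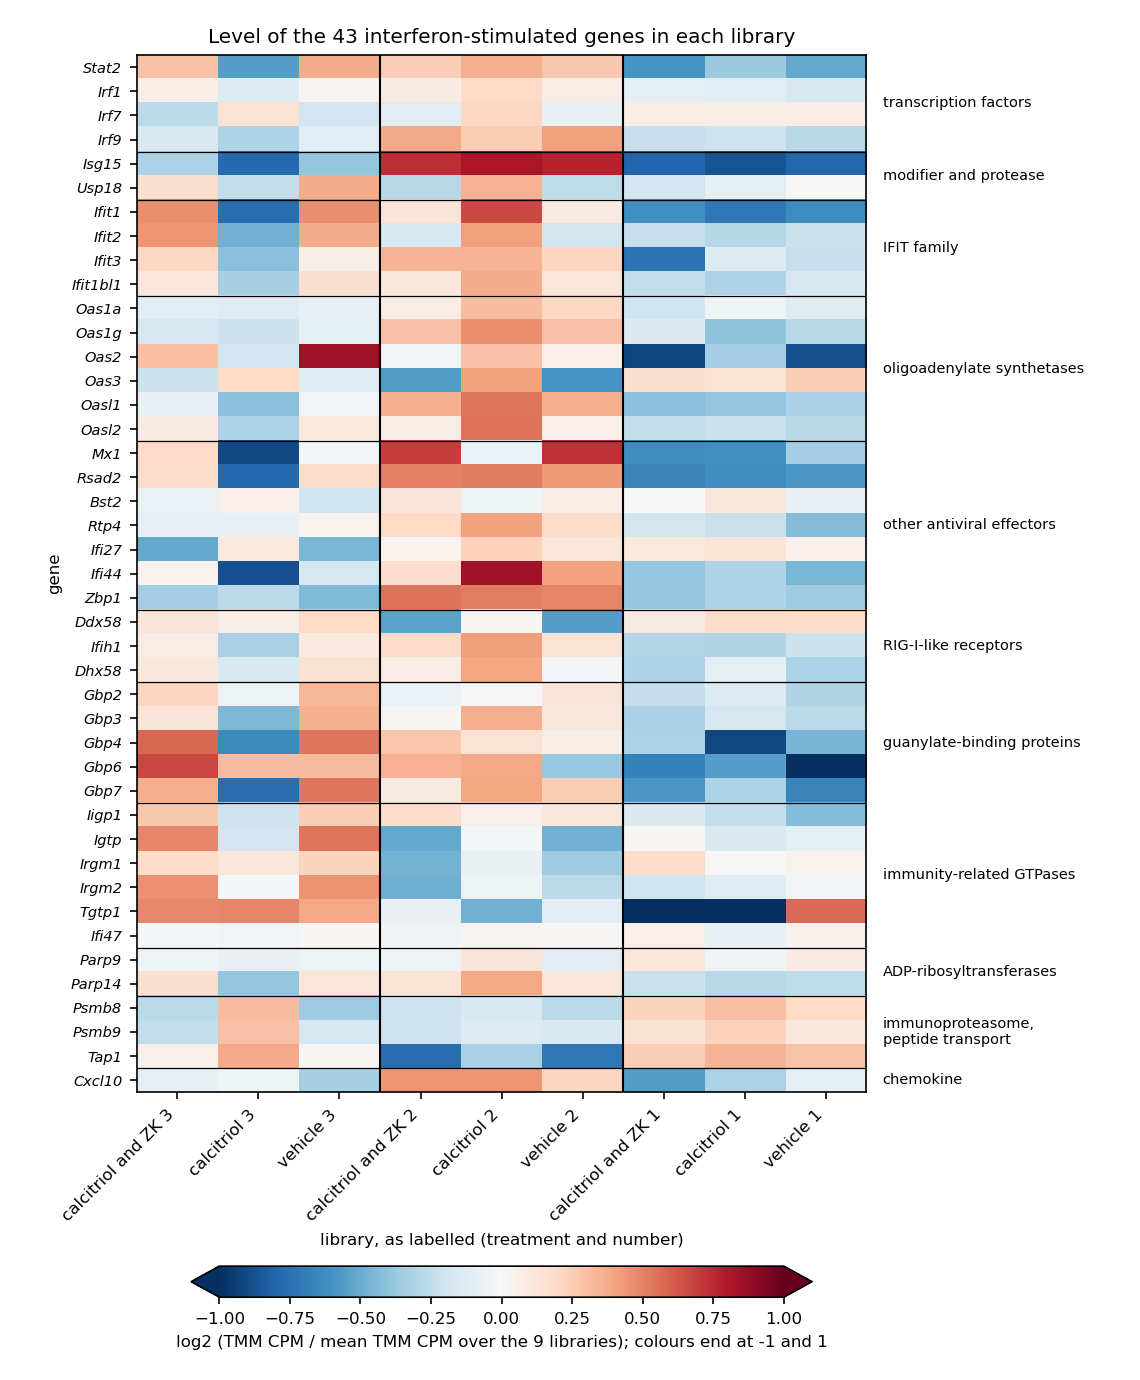
Level of each of the 43 members (down the page, grouped by role) in each of the 9 libraries (across, by label), as the log2 ratio of its TMM CPM to its mean over the 9 libraries; colours end at -1 and 1. For 28 members the 3 columns of number 2 are all above those of number 1 and for 5 all below, against 31.8% and 30% of all genes tested. Calcitriol 3 is below both other number 3 libraries for 32 members and above both for 10, against 46.9% and 43.6% of all genes tested.

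Between treatments on the label, no member passed the test. A gene was called where edgeR's quasi-likelihood test gave an adjusted p below 0.05 together with a log2 fold change beyond 0.58 in either direction. For calcitriol over vehicle 0 of 43 members were called, as were 0% of the 15002 genes tested, and 135 genes (0.9%) but 0 members had an unadjusted p under 0.05. Calcitriol and ZK over vehicle gave 0 members, against 0% of all genes, with 24 genes (0.16%) and 0 members at an unadjusted p under 0.05. Calcitriol and ZK over calcitriol gave 0 members, against 0% of all genes, with 147 genes (0.98%) and 0 members at an unadjusted p under 0.05. Likewise, 0 genes were called by DESeq2 and by limma voom in each of the 3 comparisons. The median log2 fold change of the members was -0.04, -0.01 and 0.01 in these 3 comparisons, beside -0.01, 0.00 and 0.01 over all genes tested. The comparisons share libraries, so they are not independent of each other.

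The member with the smallest p for calcitriol over vehicle was Mx1, which encodes a dynamin-like GTPase of the antiviral response. Mx1 was at 1.98, 0.927 and 1.71 TMM CPM in libraries labelled calcitriol and ZK 3, calcitriol 3 and vehicle 3. Mx1 was at 2.81, 1.67 and 2.89 in calcitriol and ZK 2, calcitriol 2 and vehicle 2. It stood at 1.13, 1.14 and 1.37 in calcitriol and ZK 1, calcitriol 1 and vehicle 1. The highest levels were in calcitriol and ZK 2 and vehicle 2, and the lowest in calcitriol 3. Its means were 1.24 ± 0.383 TMM CPM in libraries labelled calcitriol and 1.99 ± 0.796 in those labelled vehicle (SD, n = 3 each), a log2 fold change of -0.66 with a 95% interval of -1.59 to 0.27 (edgeR adjusted p = 1.00). The groups overlapped. Oas3, a synthetase of the oligoadenylates that activate RNase L, was at 23.1, 30.7 and 24.5 TMM CPM in libraries labelled calcitriol and ZK 3, calcitriol 3 and vehicle 3. Oas3 was at 18.1, 35.3 and 17.7 in calcitriol and ZK 2, calcitriol 2 and vehicle 2. It stood at 29.9, 29.5 and 31.7 in calcitriol and ZK 1, calcitriol 1 and vehicle 1. Its highest level was in calcitriol 2 and its lowest in the other number 2 libraries. Its log2 fold change was -0.43 for calcitriol and ZK over calcitriol (interval -0.97 to 0.11) and 0.37 for calcitriol over vehicle (interval -0.17 to 0.91), with overlapping groups.

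Irf7, the transcription factor that amplifies production of type I interferon, was at 74.2, 98.4 and 77.9 TMM CPM in libraries labelled calcitriol and ZK 3, calcitriol 3 and vehicle 3. Irf7 was at 82.6, 103 and 84.5 in calcitriol and ZK 2, calcitriol 2 and vehicle 2. It stood at 93.6, 92.4 and 93.8 in calcitriol and ZK 1, calcitriol 1 and vehicle 1. It was highest in calcitriol 2 and lowest in calcitriol and ZK 3. Its log2 fold change was -0.23 for calcitriol and ZK over calcitriol (interval -0.51 to 0.05, unadjusted p = 0.0946) and 0.20 for calcitriol over vehicle (interval -0.08 to 0.47), with overlapping groups. Among the guanylate-binding proteins, Gbp4 had means of 4.00 ± 1.17 TMM CPM in libraries labelled calcitriol and ZK, 2.6 ± 1.05 in calcitriol and 3.67 ± 1.24 in vehicle (SD, n = 3 each), with overlap between all labels and a log2 fold change of -0.49 for calcitriol over vehicle and 0.62 for calcitriol and ZK over calcitriol. Psmb8 had 237 ± 41.3 TMM CPM in libraries labelled calcitriol and 194 ± 42.2 in vehicle, a log2 fold change of 0.29 (interval -0.21 to 0.78). Psmb9, another subunit of the immunoproteasome, had a log2 fold change of -0.23 for calcitriol and ZK over calcitriol (interval -0.60 to 0.14). Neither of the subunits separated the labels.

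For calcitriol and ZK over vehicle, the 5 members of smallest p were Gbp6, Tgtp1, Bst2, Usp18 and Oas2. Gbp6 was at 1.06, 0.83 and 0.831 TMM CPM in libraries labelled calcitriol and ZK 3, calcitriol 3 and vehicle 3. Gbp6 was at 0.849, 0.872 and 0.513 in calcitriol and ZK 2, calcitriol 2 and vehicle 2. It stood at 0.418, 0.454 and 0.171 in calcitriol and ZK 1, calcitriol 1 and vehicle 1. The lowest level was in vehicle 1. Its log2 fold change was 0.59 with an interval of -0.64 to 1.83, on few reads. Tgtp1, an immunity-related GTPase with the near-identical copy Tgtp2, was at 0.484, 0.488 and 0.453 TMM CPM in libraries labelled calcitriol and ZK 3, calcitriol 3 and vehicle 3. Tgtp1 was at 0.33, 0.249 and 0.321 in calcitriol and ZK 2, calcitriol 2 and vehicle 2. It stood at 0.125, 0.162 and 0.514 in calcitriol and ZK 1, calcitriol 1 and vehicle 1. No library reached 1 TMM CPM for it. Bst2, the tetherin that holds budding viruses at the cell surface, was at 16.2, 17.5 and 14.8 TMM CPM in libraries labelled calcitriol and ZK 3, calcitriol 3 and vehicle 3. Bst2 was at 18.5, 16.5 and 17.8 in calcitriol and ZK 2, calcitriol 2 and vehicle 2. It stood at 16.9, 18.4 and 16.1 in calcitriol and ZK 1, calcitriol 1 and vehicle 1. The labels overlapped within a narrow range. Its log2 fold change was 0.08 (interval -0.17 to 0.34). Only Ifi47 and Parp9 varied less over the 9 libraries among the members. The log2 fold change was -0.38 for Tgtp1, -0.15 for Usp18 and -0.30 for Oas2, with overlapping groups.

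The median interval of a member's log2 fold change reached 0.55 to either side in each comparison of treatments. Of genes given a known change in simulated counts of calcitriol and vehicle, the test called 0 of 67 at 1.5-fold, 13 of 67 at 2-fold and 61 of 66 at 4-fold. Within a treatment label the highest library exceeded the lowest by a median over the members of 1.53 times for calcitriol and ZK, 1.63 times for calcitriol and 1.54 times for vehicle. Within a number the median was 1.34 times for number 3, 1.20 times for number 2 and 1.11 times for number 1. With the number as a block, 0 members were called in any of the 3 comparisons. Ifi27, a mitochondrial protein, was the only member whose ranges did not overlap in a comparison of treatments: 54.99, 52.5 and 35.9 TMM CPM in libraries labelled calcitriol and ZK 1, 2 and 3, below 56.5, 60.1 and 55.01 in calcitriol 1, 2 and 3. Of all genes tested, 1.73% were lower without overlap in that comparison and 2.66% higher, and Ifi27 did not pass the test (edgeR, unadjusted p = 0.22). No member separated calcitriol from vehicle, where 1.58% of all genes were higher and 2.38% lower without overlap, or calcitriol and ZK from vehicle, where 0.947% were higher and 0.84% lower.

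**Figure D2:**
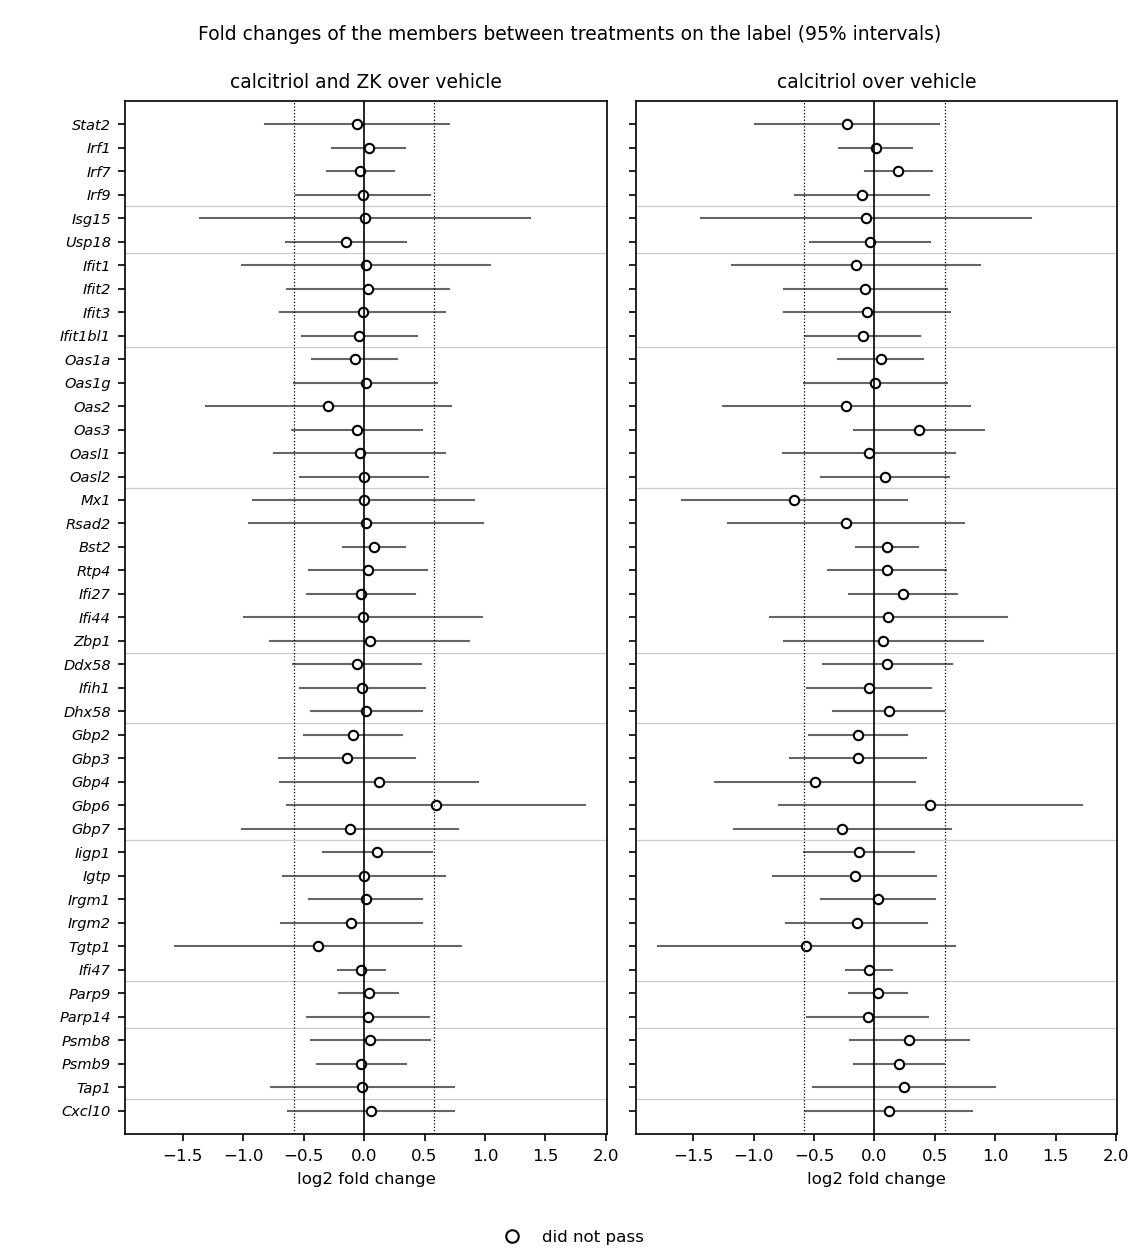
Log2 fold change of each member (down the page, in the same order as in the map of levels) for calcitriol and ZK over vehicle (left) and calcitriol over vehicle (right), with 95% intervals; dotted lines mark 0.58 to either side of no change. No point is filled, since 0 of 43 members passed the test in either comparison, and every interval reaches across 0.

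Between numbers on the label, members did pass the test. In the number 2 libraries 15 of 43 members rose and 1 fell relative to the number 1 libraries, where 12.2% of the 15002 genes tested were called higher and 8.25% lower, 20.4% in either direction (edgeR). At an unadjusted p under 0.05 there were 32 members, against 47.5% of all genes. The members were chosen with earlier results of these data known, so the counts beside these shares are descriptions only. Without a minimum fold, 24 members were higher and 4 lower at an adjusted p under 0.05, against 19.6% and 18.7% of all genes. The median log2 fold change of the members was 0.42, beside 0.03 over all genes tested, and 28 members were higher and 5 lower with no overlap between the 3 libraries of each number, against 31.8% and 30% of all genes. The members that rose were spread over the roles: 4 antiviral effectors, 3 oligoadenylate synthetases, 2 transcription factors, 2 IFIT genes, 2 guanylate-binding proteins, Isg15 and Cxcl10. None of the 6 immunity-related GTPases rose, and of the 3 immunoproteasome and peptide transport genes none rose and Tap1 fell. The 6 members Isg15, Oasl1, Rsad2, Stat2, Tap1 and Zbp1 passed in all 17 other settings tried, and the rest of the calls were lost in at least 1. Gbp7 lost its call in 11 settings, Oas2 in 10, Irf9 in 5, and Gbp6, Ifi44, Ifit1 and Mx1 in 4 each. Ifit3 lost it in 3, Oas1g in 2 and Cxcl10 in 1. Without the library labelled calcitriol 2, 8 members rose and 3 fell, against 11.3% and 8.61% of the genes tested in that fit. The counts were 8 and 1 without calcitriol and ZK 1 (10% and 7.22% of genes), 9 and 1 without vehicle 1 (9.9% and 7.23%), and 9 and 1 without calcitriol and ZK 2 (9.45% and 6.7%).

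Markers of other cells of the tissue differed in the same comparison, and their part in the members' values was not tested. Beside the counts of called markers below, 12.2% of all genes were called higher and 8.25% lower. Pancreatic acinar markers summed to 7752 to 37088 TMM CPM in number 2 libraries and 37.3 to 43.9 in number 1 libraries, and 9 of 9 were called higher; their sum was 38.5 to 3252 in number 3 libraries. Fibroblast markers summed to 152 to 163 TMM CPM in number 2 and 83.6 to 88.7 in number 1, with 5 of 5 called higher, and macrophage markers to 337 to 341 in number 2 and 287 to 293 in number 1. Of the 9 macrophage and monocyte markers 1 was called higher, and their median log2 fold change was 0.03. Without overlap 4 of them were higher and 3 lower, against 31.8% and 30% of all genes. B cell and plasma cell markers summed to 3124 to 3543 TMM CPM in number 2 and 5186 to 5323 in number 1, with 5 of 8 called higher and 1 lower. T cell and intraepithelial lymphocyte markers summed to 278 to 306 TMM CPM in number 2 and 434 to 465 in number 1. Of these 10 markers 9 were lower without overlap, against 30% of all genes, though only 1 was called. Epithelial markers, which define the labelled tissue, summed to 17797 to 19158 TMM CPM in number 2 and 24620 to 24855 in number 1, with 0 of 8 called higher and 2 lower. Smooth muscle markers summed to 934.3 to 974.8 TMM CPM in number 2 and 1137 to 1213 in number 1, with 1 of 5 called lower, and endothelial markers to 39.3 to 45.5 in number 2 and 31.4 to 32.4 in number 1, with 1 of 5 called higher. Paneth cell sums overlapped between the numbers, with 1 of 5 markers called lower, as did those of dendritic cells, with 0 of 7 called. No marker of these lists was at 0 in every library. In these bulk samples fewer cells of a type and less RNA per cell cannot be told apart.

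Promoters of 5 members that rose are shown because they differ in whether they hold a response element. They are the 150 bases before the RefSeq start in GRCm38.p6, 5′ to 3′ on the strand of the gene, with each match to GAAANNGAAA, or TTTCNNTTTC on the other strand, in capitals. The window of Isg15 lies at chr4:156200819-156200968 on the minus strand, with 3 overlapping matches that begin 78, 72 and 66 bases before the start. The window of Ifit1 lies at chr19:34640739-34640888 on the plus strand, with matches at 104 and 85 bases. The window of Rsad2 lies at chr12:26456453-26456602 on the minus strand, with 1 match at 120 bases, and that of Gbp7 at chr3:142530186-142530335 on the plus strand, with 1 match at 53 bases. That of Oasl1, at chr5:114923090-114923239 on the plus strand, holds no match.
Isg15: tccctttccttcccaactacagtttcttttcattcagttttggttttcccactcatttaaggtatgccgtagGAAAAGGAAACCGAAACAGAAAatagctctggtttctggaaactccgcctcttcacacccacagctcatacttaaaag
Ifit1: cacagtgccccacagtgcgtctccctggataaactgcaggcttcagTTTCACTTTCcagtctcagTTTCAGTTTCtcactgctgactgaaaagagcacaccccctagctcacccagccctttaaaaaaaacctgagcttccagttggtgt
Rsad2: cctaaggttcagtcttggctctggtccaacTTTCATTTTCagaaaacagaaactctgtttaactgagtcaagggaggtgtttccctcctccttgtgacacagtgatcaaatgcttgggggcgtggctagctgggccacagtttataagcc
Gbp7: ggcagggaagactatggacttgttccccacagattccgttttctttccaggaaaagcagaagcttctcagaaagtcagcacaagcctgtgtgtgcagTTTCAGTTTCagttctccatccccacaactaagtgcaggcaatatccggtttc
Oasl1: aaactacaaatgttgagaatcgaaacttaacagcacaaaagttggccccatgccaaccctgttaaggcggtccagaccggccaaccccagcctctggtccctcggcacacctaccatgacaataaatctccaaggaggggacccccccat

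RefSeq promoter windows of 300 bases, from 250 before to 50 after the start, were at hand for 31 of the 43 members. A match to GAAANNGAAA on either strand was in a window of 20 of the 31 members, or 64.5%, against 3.99% of the 27018 genes with a window. It was in 8 of 11 members that rose in number 2, in 12 of 19 that did not pass, and not in the window of Tap1. The shorter pattern TTCNNNGAA of the gamma-activated site, which can overlap the first, was in a window of 9 of the 31 members, or 29%, against 9.55% of all genes with a window. It was in 1 of the 11 members that rose and in 8 of the 19 that did not pass. These matches are descriptions of letters in a window and are not shown to be bound.

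Among the transcription factors, Stat2 and Irf9, partners in the complex that binds the response element, rose in number 2. Stat2 was at 26.6, 14.8 and 28.05 TMM CPM in libraries labelled calcitriol and ZK 3, calcitriol 3 and vehicle 3. Stat2 was at 25.7, 27.7 and 26.2 in calcitriol and ZK 2, calcitriol 2 and vehicle 2. It stood at 14.4, 16.8 and 15.2 in calcitriol and ZK 1, calcitriol 1 and vehicle 1. The number 2 libraries lay above the number 1 libraries without overlap, at 1.71 times (log2 fold change 0.78, standard error 0.19, edgeR adjusted p = 0.0116), and calcitriol and ZK 3 and vehicle 3 lay with number 2, whereas calcitriol 3 lay within the number 1 range. Irf9 was at 54.1 to 60.2 TMM CPM in the number 2 libraries and 37.3 to 39.2 in the number 1 libraries (log2 fold change 0.59, standard error 0.08, edgeR adjusted p = 0.000376). Irf1, which drives genes answering to interferon gamma and is the member of this role with the highest level, was at 132, 115 and 129 TMM CPM in libraries labelled calcitriol and ZK 3, calcitriol 3 and vehicle 3. Irf1 was at 134, 145 and 133 in calcitriol and ZK 2, calcitriol 2 and vehicle 2. It stood at 118, 117 and 113 in calcitriol and ZK 1, calcitriol 1 and vehicle 1. Its number 2 and number 1 libraries did not overlap, but the difference was small at 1.18 times (log2 fold change 0.24, standard error 0.08, edgeR adjusted p = 0.0343), under the minimum fold. Irf7 overlapped between the numbers (log2 fold change -0.05, interval -0.32 to 0.21). Irf9 overlaps Rnf31, Irf1 overlaps Gm17334 and Irf7 overlaps Phrf1 in the annotation, so their counts may be split.

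Isg15, a ubiquitin-like protein that is joined to other proteins during the antiviral response, had the largest change of all members between number 2 and number 1. It was at 26.4, 19.1 and 24.9 TMM CPM in libraries labelled calcitriol and ZK 3, calcitriol 3 and vehicle 3. Isg15 was at 54.5, 57.7 and 55.7 in calcitriol and ZK 2, calcitriol 2 and vehicle 2. It stood at 18.8, 17.9 and 18.97 in calcitriol and ZK 1, calcitriol 1 and vehicle 1. All number 2 libraries stood above all others, at 3.01 times the number 1 mean (log2 fold change 1.59, standard error 0.11, edgeR adjusted p = 8.73e-06), while the number 3 libraries lay just above number 1 and fell relative to number 2 (log2 fold change -1.25, standard error 0.11, edgeR adjusted p = 4.21e-05). Usp18, the protease that removes Isg15 from its targets and blocks the type I receptor, did not follow it. It was at 17.4, 13.1 and 20.1 TMM CPM in libraries labelled calcitriol and ZK 3, calcitriol 3 and vehicle 3. Usp18 was at 12.9, 19.8 and 13.02 in calcitriol and ZK 2, calcitriol 2 and vehicle 2. It stood at 13.6, 14.5 and 15.5 in calcitriol and ZK 1, calcitriol 1 and vehicle 1. It was thus highest in calcitriol 2 and vehicle 3 and low in the other number 2 libraries, so number 2 and number 1 overlapped (log2 fold change 0.07, interval -0.36 to 0.50). Isg15 (ENSMUSG00000035692) lies on chromosome 4 from 156199424 to 156200818 in GRCm38 and overlaps no other annotated gene.

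Within the IFIT family, whose proteins bind foreign RNA ends, 2 of 4 members rose, against 12.2% of all genes. Ifit1 was at 60.2, 25.7 and 59.97 TMM CPM in libraries labelled calcitriol and ZK 3, calcitriol 3 and vehicle 3. Ifit1 was at 47.5, 68.7 and 46.4 in calcitriol and ZK 2, calcitriol 2 and vehicle 2. It stood at 28.5, 26.5 and 28.1 in calcitriol and ZK 1, calcitriol 1 and vehicle 1. It was highest in calcitriol 2, and calcitriol and ZK 3 and vehicle 3 exceeded calcitriol and ZK 2 and vehicle 2, while calcitriol 3 was the lowest of all 9 libraries (log2 fold change 0.97, standard error 0.28, edgeR adjusted p = 0.0228 for number 2 over number 1). Ifit3 was at 5.84 to 6.37 TMM CPM in number 2 libraries and 3.01 to 4.57 in number 1 libraries (log2 fold change 0.64, standard error 0.19, edgeR adjusted p = 0.0223). Ifit1bl1, a mouse relative of Ifit1 and the member of this role with the highest level, was at 90.7, 66.3 and 93.6 TMM CPM in libraries labelled calcitriol and ZK 3, calcitriol 3 and vehicle 3. Ifit1bl1 was at 90.2, 108 and 90.9 in calcitriol and ZK 2, calcitriol 2 and vehicle 2. It stood at 70.5, 67.6 and 74.3 in calcitriol and ZK 1, calcitriol 1 and vehicle 1. Its number 2 libraries did not overlap with number 1, but its change of 1.36 times was under the minimum fold (log2 fold change 0.44, standard error 0.13, edgeR adjusted p = 0.0224). Ifit2 was at 4.14 to 6.23 TMM CPM in number 2 and 3.86 to 4.03 in number 1, and did not pass. The IFIT genes lie next to each other on chromosome 19 and resemble each other in sequence, so uniquely aligned reads may be split unevenly between them.

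Of the oligoadenylate synthetases, which answer double-stranded RNA, 3 of 6 rose and none fell, against 12.2% and 8.25% of all genes. Oasl1, which in mouse represses translation of Irf7, was at 82.2, 64.8 and 84.7 TMM CPM in libraries labelled calcitriol and ZK 3, calcitriol 3 and vehicle 3. Oasl1 was at 111, 126 and 111 in calcitriol and ZK 2, calcitriol 2 and vehicle 2. It stood at 64.9, 65.7 and 68.99 in calcitriol and ZK 1, calcitriol 1 and vehicle 1. Its number 2 libraries exceeded the other 6, at 1.74 times number 1 (log2 fold change 0.80, standard error 0.10, edgeR adjusted p = 0.000407). Oas2 was at 2.14, 1.51 and 3.1 TMM CPM in libraries labelled calcitriol and ZK 3, calcitriol 3 and vehicle 3. Oas2 was at 1.7, 2.12 and 1.8 in calcitriol and ZK 2, calcitriol 2 and vehicle 2. It stood at 0.919, 1.36 and 0.942 in calcitriol and ZK 1, calcitriol 1 and vehicle 1. It had 550 reads in all, and its change just passed (log2 fold change 0.78, standard error 0.28, edgeR adjusted p = 0.0498), a call lost in 10 of the 17 other settings. Oas1g was at 10.4 to 11.7 TMM CPM in number 2 libraries and 6.46 to 7.68 in number 1 libraries (log2 fold change 0.63, standard error 0.10, edgeR adjusted p = 0.00121). Oasl2 was at 64.6, 49.1 and 65.96 TMM CPM in libraries labelled calcitriol and ZK 3, calcitriol 3 and vehicle 3. Oasl2 was at 63.6, 89.1 and 63.4 in calcitriol and ZK 2, calcitriol 2 and vehicle 2. It stood at 51.7, 52.4 and 50.4 in calcitriol and ZK 1, calcitriol 1 and vehicle 1. Calcitriol 2 was far above the other libraries. Oas1a was at 19.9 to 23.4 TMM CPM in number 2 against 16.5 to 18.4 in number 1. Both Oas genes were past the adjusted p but under the minimum fold. Oas3 overlapped between numbers 2 and 1. Oasl1 overlaps the antisense gene Gm13822, and Oas1a and Oas1g are close paralogs, so their counts are uncertain.

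Of the other antiviral effectors, 4 of 7 rose and none fell, against 12.2% and 8.25% of all genes. Rsad2, the radical enzyme viperin that makes a chain terminator of viral RNA synthesis, was at 14.6, 7.47 and 14.6 TMM CPM in libraries labelled calcitriol and ZK 3, calcitriol 3 and vehicle 3. Rsad2 was at 18.1, 18.4 and 17.2 in calcitriol and ZK 2, calcitriol 2 and vehicle 2. It stood at 8.06, 8.34 and 8.56 in calcitriol and ZK 1, calcitriol 1 and vehicle 1. The number 2 libraries lay close to each other and above all others, at 2.15 times number 1 (log2 fold change 1.10, standard error 0.21, edgeR adjusted p = 0.00278). Zbp1, a sensor of nucleic acids in the Z form that can start necroptosis, was at 20.5, 21.8 and 19.3 TMM CPM in libraries labelled calcitriol and ZK 3, calcitriol 3 and vehicle 3. Zbp1 was at 38.1, 37.3 and 36.6 in calcitriol and ZK 2, calcitriol 2 and vehicle 2. It stood at 19.96, 21.1 and 20.4 in calcitriol and ZK 1, calcitriol 1 and vehicle 1. Here the number 3 libraries, calcitriol and ZK 3 and vehicle 3 included, lay close to number 1, and number 2 stood 1.82 times above number 1 (log2 fold change 0.87, standard error 0.07, edgeR adjusted p = 1.95e-05). Mx1, with the values given above, was 2.02 times higher (log2 fold change 1.02, standard error 0.30, edgeR adjusted p = 0.023), although calcitriol 2 was well below the other number 2 libraries.

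Ifi44 was at 1.56, 0.83 and 1.36 TMM CPM in libraries labelled calcitriol and ZK 3, calcitriol 3 and vehicle 3. Ifi44 was at 1.72, 2.74 and 2.02 in calcitriol and ZK 2, calcitriol 2 and vehicle 2. It stood at 1.17, 1.23 and 1.11 in calcitriol and ZK 1, calcitriol 1 and vehicle 1. It had 480 reads in all and rose in number 2 (log2 fold change 0.88, standard error 0.25, edgeR adjusted p = 0.0221). Rtp4, a receptor transporter protein that also acts against viruses, was at 19.6 to 22.8 TMM CPM in number 2 libraries and 12.8 to 15.2 in number 1 libraries, past the adjusted p but under the minimum fold (log2 fold change 0.54, standard error 0.10, edgeR adjusted p = 0.00209). Ifi27, the effector of highest level, was at 35.9, 55.01 and 37.4 TMM CPM in libraries labelled calcitriol and ZK 3, calcitriol 3 and vehicle 3. Ifi27 was at 52.5, 60.1 and 55.6 in calcitriol and ZK 2, calcitriol 2 and vehicle 2. It stood at 54.99, 56.5 and 53.1 in calcitriol and ZK 1, calcitriol 1 and vehicle 1. It overlapped between numbers 2 and 1 (log2 fold change 0.03, interval -0.29 to 0.35) and was low only in calcitriol and ZK 3 and vehicle 3. Bst2 did not pass either (log2 fold change 0.04, interval -0.16 to 0.24).

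**Figure D3:**
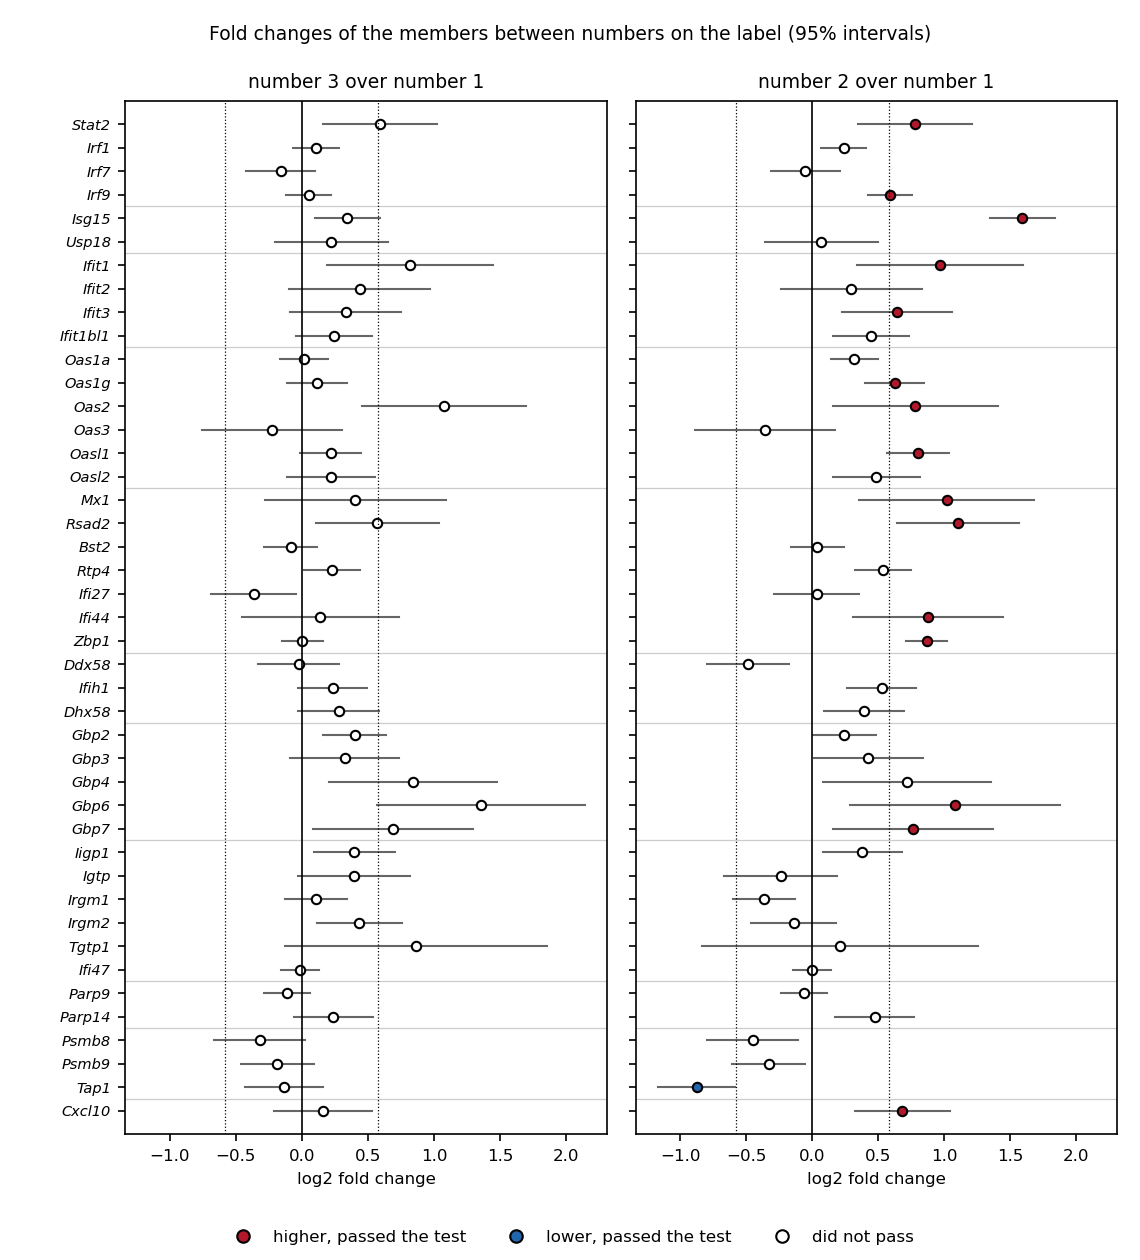
Log2 fold change of each member (down the page) for number 3 over number 1 (left) and number 2 over number 1 (right), with 95% intervals; filled points passed the test and dotted lines mark 0.58 to either side of no change. On the right 15 points are filled red and Tap1 is filled blue; on the left none is filled.

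The RIG-I-like receptors, sensors of viral RNA in the cytosol, differed in direction and none passed both thresholds, against 20.4% of all genes. Ifih1, which encodes MDA5, was at 63.1, 47.9 and 64.04 TMM CPM in libraries labelled calcitriol and ZK 3, calcitriol 3 and vehicle 3. Ifih1 was at 68.2, 80.1 and 66.3 in calcitriol and ZK 2, calcitriol 2 and vehicle 2. It stood at 48.8, 48.6 and 51.6 in calcitriol and ZK 1, calcitriol 1 and vehicle 1. Its number 2 libraries were above number 1 without overlap (log2 fold change 0.53, standard error 0.12, edgeR adjusted p = 0.0068). Ddx58, which encodes RIG-I itself, was at 28.6, 41.8 and 28.2 TMM CPM under the labels calcitriol and ZK 2, calcitriol 2 and vehicle 2 and at 44.05, 47.1 and 47.1 in calcitriol and ZK 1, calcitriol 1 and vehicle 1, the opposite direction (log2 fold change -0.49, standard error 0.14, edgeR adjusted p = 0.0201). Dhx58, which encodes their regulator LGP2, was at 8.28 to 10.99 TMM CPM in number 2 against 6.72 to 7.85 in number 1 (log2 fold change 0.39, standard error 0.14, edgeR adjusted p = 0.0443) and overlaps an antisense gene, Dhx58os.

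All 5 guanylate-binding proteins, GTPases that coat bacteria and parasite vacuoles, were higher in number 2 than in number 1 without overlap, against 31.8% of all genes. By the test 2 of them rose, against 12.2% of all genes. Gbp6, with the values given above, was 2.11 times higher (log2 fold change 1.08, standard error 0.36, edgeR adjusted p = 0.0372). It had only 213 reads in all, and vehicle 2 at 0.513 TMM CPM lay just above calcitriol 1 at 0.454. Gbp7 was at 5.8 to 7.18 TMM CPM in number 2 libraries and 3.43 to 4.38 in number 1 libraries (log2 fold change 0.76, standard error 0.27, edgeR adjusted p = 0.0489), and its call was lost in 11 of the 17 other settings. Gbp2, the member of this role with the highest level, was at 18.5, 15.4 and 20.1 TMM CPM in libraries labelled calcitriol and ZK 3, calcitriol 3 and vehicle 3. Gbp2 was at 15.3, 15.95 and 17.4 in calcitriol and ZK 2, calcitriol 2 and vehicle 2. It stood at 13.5, 14.5 and 12.98 in calcitriol and ZK 1, calcitriol 1 and vehicle 1. It was highest in calcitriol and ZK 3 and vehicle 3, and number 2 exceeded number 1 by only 1.18 times (edgeR adjusted p = 0.0997). Gbp4 was at 5.09, 2.2 and 4.96 TMM CPM under the labels calcitriol and ZK 3, calcitriol 3 and vehicle 3, at 4.15, 3.79 and 3.56 in calcitriol and ZK 2, calcitriol 2 and vehicle 2, and at 2.76, 1.82 and 2.48 in calcitriol and ZK 1, calcitriol 1 and vehicle 1. Gbp3 and Gbp4 did not pass (0.42 and 0.72 on the log2 scale). Gbp4 overlaps Gbp8 and Gbp9, and Gbp6 overlaps Gm43302.

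The immunity-related GTPases act on vacuoles of intracellular pathogens and answer chiefly to interferon gamma. Of these 6 members 0 were called in number 2 over number 1, against 20.4% of all genes in either direction. Igtp, the member of this role with the highest level, was at 41.4, 25.9 and 42.9 TMM CPM in libraries labelled calcitriol and ZK 3, calcitriol 3 and vehicle 3. Igtp was at 20.8, 29.4 and 21.2 in calcitriol and ZK 2, calcitriol 2 and vehicle 2. It stood at 29.8, 26.8 and 27.8 in calcitriol and ZK 1, calcitriol 1 and vehicle 1. It was lowest in calcitriol and ZK 2 and vehicle 2 and highest in calcitriol and ZK 3 and vehicle 3, and it rose in number 3 relative to number 2 (log2 fold change 0.63, standard error 0.19, edgeR adjusted p = 0.0366), a call lost in 7 of the 9 fits that left out 1 library. Irgm2, which overlaps Igtp on the same strand so that reads may be split between them, was at 24.2 to 33.6 TMM CPM in number 3, 17.5 to 23.7 in number 2 and 21.3 to 24.02 in number 1. Irgm1 was at 16.98 to 22.4 TMM CPM in number 2 against 23.6 to 26.8 in number 1, past the adjusted p but under the minimum fold (log2 fold change -0.37, standard error 0.10, edgeR adjusted p = 0.0211). Iigp1 was at 9.05 to 9.86 TMM CPM in number 2 against 6.47 to 7.89 in number 1, the other direction (log2 fold change 0.38, standard error 0.14, edgeR adjusted p = 0.0493). Ifi47 was the steadiest member, at 25.3 to 27.6 TMM CPM over all 9 libraries, and Tgtp1 was too low to compare.

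Parp14 and Parp9 transfer ADP-ribose and act in interferon signalling. Parp14 was at 70.03, 47.98 and 68.2 TMM CPM in libraries labelled calcitriol and ZK 3, calcitriol 3 and vehicle 3. Parp14 was at 69.4, 81.9 and 68.2 in calcitriol and ZK 2, calcitriol 2 and vehicle 2. It stood at 53.9, 51.8 and 52.6 in calcitriol and ZK 1, calcitriol 1 and vehicle 1. Its number 2 libraries were above number 1 without overlap, under the minimum fold (log2 fold change 0.47, standard error 0.13, edgeR adjusted p = 0.0209). Parp9 was at 58.7, 57.5 and 58.6 TMM CPM in libraries labelled calcitriol and ZK 3, calcitriol 3 and vehicle 3. Parp9 was at 58.9, 66.1 and 56.3 in calcitriol and ZK 2, calcitriol 2 and vehicle 2. It stood at 66.01, 59.1 and 64.1 in calcitriol and ZK 1, calcitriol 1 and vehicle 1. The numbers overlapped (log2 fold change -0.06, interval -0.23 to 0.11). Parp9 overlaps the gene Dtx3l on the opposite strand.

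The immunoproteasome and peptide transport genes ran the other way. Tap1, a subunit of the transporter that carries peptides to MHC class I, was at 88.9, 112 and 86.6 TMM CPM in libraries labelled calcitriol and ZK 3, calcitriol 3 and vehicle 3. Tap1 was at 50.7, 68.6 and 52.4 in calcitriol and ZK 2, calcitriol 2 and vehicle 2. It stood at 102, 109 and 105 in calcitriol and ZK 1, calcitriol 1 and vehicle 1. The number 2 libraries were below all others, at 0.545 times number 1 (log2 fold change -0.88, standard error 0.13, edgeR adjusted p = 0.000894), and Tap1 rose in number 3 relative to number 2 (log2 fold change 0.74, standard error 0.13, edgeR adjusted p = 0.00298). Psmb8 was at 174, 261 and 164 TMM CPM in libraries labelled calcitriol and ZK 3, calcitriol 3 and vehicle 3. Psmb8 was at 183, 189 and 175 in calcitriol and ZK 2, calcitriol 2 and vehicle 2. It stood at 246, 260.1 and 242 in calcitriol and ZK 1, calcitriol 1 and vehicle 1. It was low in all number 2 libraries and in calcitriol and ZK 3 and vehicle 3, and its change was under the minimum fold (log2 fold change -0.45, standard error 0.15, edgeR adjusted p = 0.0431). Psmb9 was at 77.98, 113 and 82.2 TMM CPM in libraries labelled calcitriol and ZK 3, calcitriol 3 and vehicle 3. Psmb9 was at 80.03, 83.9 and 82.9 in calcitriol and ZK 2, calcitriol 2 and vehicle 2. It stood at 102, 108 and 99.7 in calcitriol and ZK 1, calcitriol 1 and vehicle 1. It did not pass, although number 2 lay below number 1 without overlap (log2 fold change -0.33, standard error 0.12, edgeR adjusted p = 0.0609). Tap1 and Psmb9 overlap head to head on opposite strands, on chromosome 17 from 34187553 to 34197225 and from 34181987 to 34187764 in GRCm38, and without a stated strand setting their reads cannot be told apart there.

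Cxcl10, the chemokine that draws T cells bearing CXCR3, was at 2.33, 2.39 and 1.96 TMM CPM in libraries labelled calcitriol and ZK 3, calcitriol 3 and vehicle 3. Cxcl10 was at 3.35, 3.34 and 2.85 in calcitriol and ZK 2, calcitriol 2 and vehicle 2. It stood at 1.67, 1.98 and 2.31 in calcitriol and ZK 1, calcitriol 1 and vehicle 1. It was low, on 753 reads in all, and rose in number 2 (log2 fold change 0.68, standard error 0.16, edgeR adjusted p = 0.00918), with no overlap between number 2 and number 1. It overlaps Art3 on the opposite strand.

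**Figure D4:**
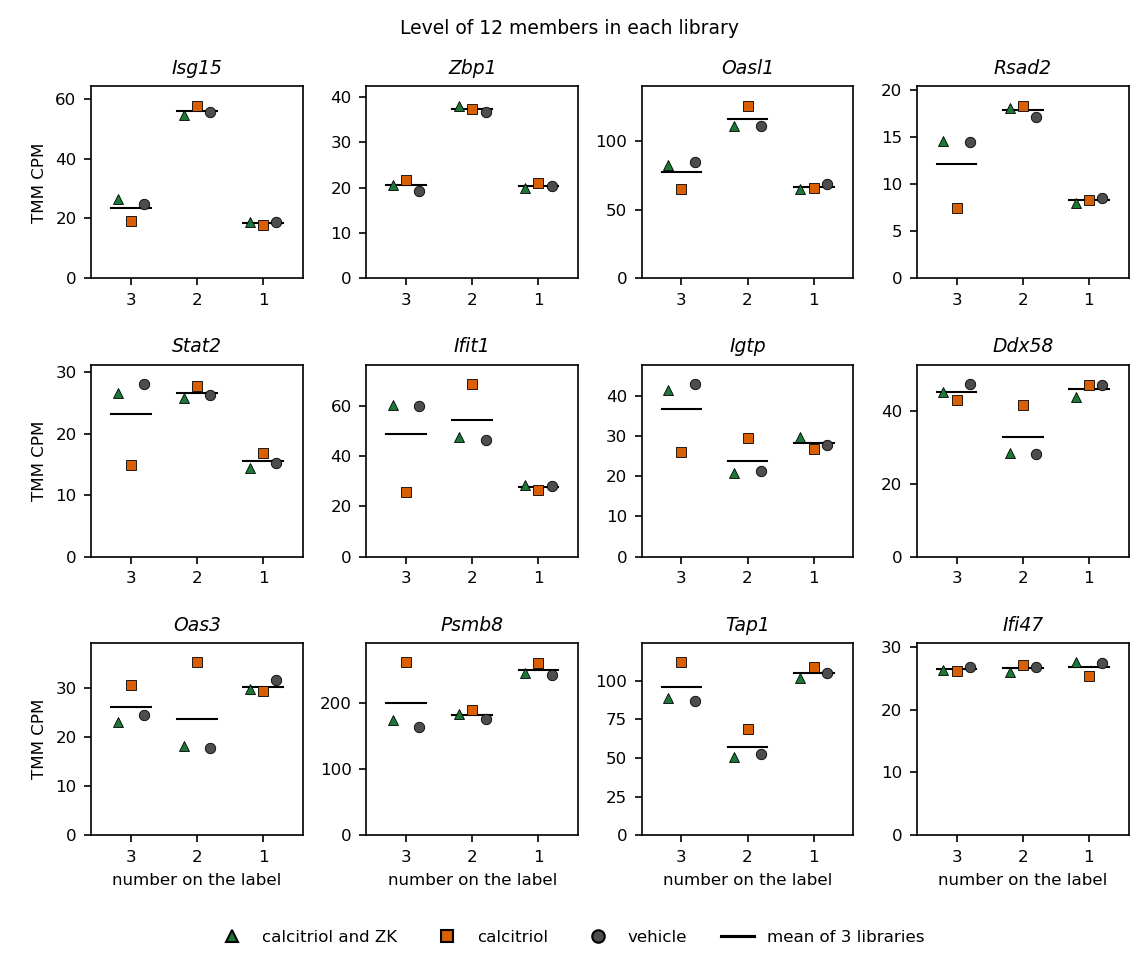
Level (TMM CPM, axis from 0) of 12 members in each library, by number on the label, with a symbol for each treatment and a bar for the mean of 3 libraries. Isg15, Zbp1, Oasl1 and Rsad2 are high in all 3 number 2 libraries, Tap1 is low there, calcitriol 3 departs from the other number 3 libraries in Rsad2, Stat2, Ifit1, Igtp, Psmb8 and Tap1, and Ifi47 is level.

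In number 3 over number 1, 0 of 43 members were called, against 0% of the 15002 genes, with 13 members and 3940 genes (26.3%) at an unadjusted p under 0.05 (edgeR). DESeq2 called 2 members higher, Gbp6 and Oas2, against 2.49% of all genes, and 0 lower, against 0.16%, and limma voom called none. The number 3 libraries split. Both calcitriol and ZK 3 and vehicle 3 were above every number 1 library for 28 members and below every one for 7, against 36.1% and 35.2% of all genes. Calcitriol 3 was below both of them for 32 members and above both for 10, against 46.9% and 43.6% of all genes. The median log2 fold change was 0.23, beside 0.01 over all genes. Oas2 (log2 fold change 1.08, standard error 0.28, edgeR adjusted p = 0.143), Gbp6 (1.36) and Gbp2 (0.40) had the smallest p, and Isg15 was 19.1 to 26.4 TMM CPM in number 3 against 17.9 to 18.97 in number 1 (log2 fold change 0.34, standard error 0.11, edgeR adjusted p = 0.149). Ranges did not overlap for 6 members that were higher and 1 that was lower, against 9.75% and 8.61% of all genes. Without the library labelled calcitriol 3, edgeR called 9 members higher and 1 lower, against 11.4% and 7.71% of the genes tested in that fit. Ifit1, Gbp4, Gbp6, Gbp7, Oas2, Stat2, Rsad2, Ifit2 and Igtp were the higher members, and Ifi27 the lower.

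Without calcitriol 3, the log2 fold change of number 3 over number 1 was 0.82 for Stat2, 0.81 for Rsad2, 1.12 for Ifit1 and 0.58 for Igtp, and -0.58 for Ifi27 (edgeR adjusted p = 5.29e-06, 5.62e-06, 5.02e-05, 0.0019 and 2.24e-05). Isg15 was then at 0.47 and Psmb8 at -0.56, both past the adjusted p but under the minimum fold. This fit compares calcitriol and ZK 3 and vehicle 3 with the number 1 libraries, and it leaves out the only number 3 library labelled calcitriol. No member was called by edgeR when any other library was left out. The libraries on each side of this fit lay close to each other, so its adjusted p-values measure only the narrow spread between them.

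In number 3 over number 2, 2 members rose, against 4.53% of all genes, and 3 fell, against 6.81%. At an unadjusted p under 0.05 there were 17 members, against 35.5% of all genes. Isg15, Zbp1 and Oasl1 were lower in number 3 than in number 2, and Tap1 and Igtp higher. Zbp1 was at 19.3 to 21.8 TMM CPM in number 3 and 36.6 to 38.1 in number 2 (log2 fold change -0.86, standard error 0.07, edgeR adjusted p = 2.1e-05), and Oasl1 at 64.8 to 84.7 TMM CPM in number 3 against 111 to 126 in number 2 (log2 fold change -0.58, standard error 0.10, edgeR adjusted p = 0.00303). The call of Oasl1 lay at the minimum fold and was lost in 5 of the 17 other settings. Isg15, Tap1 and Zbp1 passed in all 17 other settings. Without the library labelled calcitriol 2, 5 members rose and 3 fell, against 5.34% and 7.05% of the genes tested in that fit. The median log2 fold change of the members was -0.11, beside 0.01 over all genes, and 5 members were higher and 13 lower without overlap, against 17.9% and 18.9% of all genes. The comparisons between numbers share libraries, so their values are set side by side and not counted as separate evidence.

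The other genes of the pathway, from lists that hold no member, were read in the same comparison of number 2 with number 1. Beside the counts of each list, 12.2% of all genes were called higher and 8.25% lower. Of 14 interferon genes of types I, II and III, 10, Ifnb1 among them, had no read in any library, where a floor of 3 reads is 0.0660 to 0.146 TMM CPM per library. The other 4 had 47 reads over all libraries, of which 40 were of Ifng, so no interferon gene could be tested. Of 9 receptor and Janus kinase genes 0 rose and 1 fell: Ifnar2, a chain of the type I receptor, at 14.3 to 17.5 TMM CPM in number 2 and 26.1 to 27.7 in number 1 (log2 fold change -0.76, standard error 0.24, edgeR adjusted p = 0.0286). The highest of that list were Ifngr2, at 158 to 161 TMM CPM in number 2 against 160.0 to 165 in number 1, and Jak2, at 129 to 146 TMM CPM in number 2 against 118 to 125 in number 1. Of 10 further transcription factors tested none passed, Stat3 being at 91.9 to 105 TMM CPM in number 2 against 89.6 to 95.8 in number 1.

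Among 12 sensors and adaptors tested 1 rose, the RNA sensor Tlr7 (log2 fold change 0.85, standard error 0.21, edgeR adjusted p = 0.0113), and 2 fell, the double-stranded RNA sensor Tlr3 (log2 fold change -0.72, standard error 0.08, edgeR adjusted p = 0.000195) and the kinase gene Ikbke (log2 fold change -0.71, standard error 0.11, edgeR adjusted p = 0.000918). The highest of them, Ticam1 at 64.8 to 67.9 TMM CPM in number 2 against 64.7 to 70.7 in number 1 and Tbk1 at 59.2 to 61.7 TMM CPM in number 2 against 51.4 to 55.4 in number 1, were not called. Of a list of 8 genes drawn up as inhibitors 3 rose and none fell, and of these Socs3 and Socs1 are inhibitors whereas Isg20 is an antiviral exonuclease. Socs3, a suppressor of cytokine signalling, was at 19.97, 17.7 and 19.95 TMM CPM under the labels calcitriol and ZK 2, calcitriol 2 and vehicle 2 and at 5.22, 5.55 and 5.52 in calcitriol and ZK 1, calcitriol 1 and vehicle 1 (log2 fold change 1.82, standard error 0.14, edgeR adjusted p = 1.39e-05). Socs1, its relative that inhibits the Janus kinases, was at 1.6 to 2.76 TMM CPM in number 2 against 0.649 to 0.771 in number 1 (log2 fold change 1.59, standard error 0.33, edgeR adjusted p = 0.00442), and Isg20 at 6.85 to 7.73 TMM CPM in number 2 against 3.26 to 4.25 in number 1 (log2 fold change 0.98, standard error 0.18, edgeR adjusted p = 0.00289). The highest of the list, Ptpn6 at 31.6 to 35.7 TMM CPM in number 2 against 30.6 to 33.4 in number 1 and Ptpn2 at 21.5 to 24.8 TMM CPM in number 2 against 18.2 to 20.6 in number 1, were not called.

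Of 12 MHC class I presentation genes 0 rose and 1 fell, B2m, the light chain, at 1588 to 1824 TMM CPM in number 2 and 2521 to 2678 in number 1 (log2 fold change -0.63, standard error 0.15, edgeR adjusted p = 0.00894). H2-K1, a heavy chain, was at 1525 to 1665 TMM CPM in number 2 against 1813 to 1917 in number 1 and was not called. Of the 12 genes, 10 were lower in number 2 than in number 1 without overlap, against 30% of all genes. Of 57 other interferon-stimulated genes tested 9 rose and 4 fell, against 12.2% and 8.25% of all genes. Ifi27l2a was at 19.2 to 20.2 TMM CPM in number 2 against 7.64 to 9.18 in number 1 (log2 fold change 1.20, standard error 0.13, edgeR adjusted p = 0.000158), and Ido1, which breaks down tryptophan, at 37.4 to 39.98 TMM CPM in number 2 against 17.2 to 18.7 in number 1 (log2 fold change 1.12, standard error 0.14, edgeR adjusted p = 0.00033). Apol9a was at 22.8 to 27.6 TMM CPM in number 2 against 10.9 to 12.6 in number 1 (log2 fold change 1.08, standard error 0.10, edgeR adjusted p = 4.13e-05). The highest genes of the list, Lgals9 at 282 to 341 TMM CPM in number 2 against 418 to 425 in number 1 and Lgals3bp at 259 to 316 TMM CPM in number 2 against 427 to 449 in number 1, were both below, and Lgals3bp fell by the test (log2 fold change -0.62, standard error 0.12, edgeR adjusted p = 0.00326).

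The same lists were read in number 3 over number 2, where 4.53% of all genes rose and 6.81% fell, and in number 3 over number 1. In number 3 the inhibitors Socs1 (log2 fold change -1.79, standard error 0.32, edgeR adjusted p = 0.00303) and Socs3 (log2 fold change -1.37, standard error 0.13, edgeR adjusted p = 7.91e-05) and the exonuclease gene Isg20 (log2 fold change -0.77, standard error 0.18, edgeR adjusted p = 0.012) fell relative to number 2, 3 of the 8 genes of that list, and none rose. The sensor gene Tlr3 (log2 fold change 0.74, standard error 0.08, edgeR adjusted p = 0.000196) and the kinase gene Ikbke (log2 fold change 0.92, standard error 0.11, edgeR adjusted p = 0.000257) rose, 2 of 12 sensors and adaptors, and so did Ifngr1, a chain of the interferon gamma receptor (log2 fold change 0.62, standard error 0.09, edgeR adjusted p = 0.00101), 1 of 9 receptor and Janus kinase genes. Of 57 other interferon-stimulated genes 2 rose and 6 fell, against 4.53% and 6.81% of all genes. No further transcription factor or MHC class I gene was called. In number 3 over number 1, 0 genes of these lists were called by edgeR, as for all genes.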

How the data were processed

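RNA of the duodenum was sequenced as single reads of stranded mRNA libraries. The authors used bcl2fastq 2.17.1.14 for base calls and DimerRemover for adapter dimers, aligned reads to the mouse genome (mm10) with Tophat and Bowtie2, and deposited HTSeq counts of uniquely aligned reads per Ensembl gene, 1 column per library, not normalized. The annotation release and the strand setting of the counting are not given in the sources used here. Headers were matched to libraries by the description in the labels. The libraries held 22561400 to 41207455 counts, and their number and depth limit the precision.

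The 15002 genes that exceeded 100 reads over all libraries were fitted over all 9 libraries with edgeR 4.0.16 (R 4.3.3, TMM scaling, quasi-likelihood test, 1 mean per treatment or, in a second fit, per number on the label). P-values were adjusted by Benjamini-Hochberg over all 15002 genes, and calls were made at an adjusted p below 0.05 and a log2 fold change beyond 0.58 either way. Intervals are 95%. Alternatives were DESeq2 1.42.0 and its size factors, limma 3.58.1 voom, other read filters, no minimum fold, only the libraries compared, the treatment as a term, the replicate number as a block, and leaving out each library. The script was tested on simulated data. For number 2 over number 1 it found 23 of 67 genes at a true fold of 1.5, which lies near the minimum fold. It found 64 of 67 at 2 and 66 of 66 at 4, with 17 false calls among 14894 genes.

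The members and lists were chosen with earlier results of these data known. Values per library are given for the 12 members of highest mean TMM CPM, not divided by length. They are also given for the highest member of each role and the 10 largest changes called in a comparison. Where a comparison called none, the 5 of smallest p were taken. The other members are given by range or mean. Same-numbered libraries deviated together for calcitriol and ZK against vehicle (correlations of deviations 0.93, 0.95 and 0.89, a pairing taken from the data and not from the labels), but not in every pair for calcitriol against vehicle (0.78, 0.82 and -0.03) or calcitriol and ZK against calcitriol (0.78, 0.81 and -0.01). Promoter sequences and gene overlaps are from RefSeq and Ensembl annotation of GRCm38.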

Additional observations from a re-analysis of the deposited data

How the results depend on the processing

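Between treatments, 0 members were called in any setting tried, including every fit that left out 1 library. With the replicate number as a block, 0 genes were called for calcitriol over vehicle, calcitriol and ZK over vehicle, and calcitriol and ZK over calcitriol (edgeR; 996, 91 and 1093 genes and 3, 0 and 6 members at an unadjusted p under 0.05). In a fit of 6 libraries with the block, chosen after seeing the data, 2 genes were called for calcitriol and ZK over vehicle, none of them a member. Leaving out 1 library moved the log2 fold change for calcitriol and ZK over vehicle between -0.295 and 0.039 for Usp18 and between -0.61 and 0.21 for Oas2, and both were positive only without vehicle 3. For number 2 over number 1, 5751 genes and 28 members passed with no minimum fold, and leaving out 1 library gave 9 to 17 members and 2368 to 3441 genes. For number 3 over number 1, DESeq2 called 398 genes and 2 members, no read filter gave 467 genes and 2 members, and leaving out 1 library gave 0 to 10 members and 0 to 2850 genes, where the highest of each was without calcitriol 3. For number 3 over number 2, 3475 genes and 13 members passed with no minimum fold, and leaving out 1 library gave 4 to 8 members and 1258 to 2320 genes. No called member changed sign in either comparison in which members were called. Scaled by total counts in place of TMM, the summed level averaged 1580.5 CPM in calcitriol and ZK, 1564.1 in calcitriol and 1587.7 in vehicle libraries, so calcitriol, with the highest mean of the treatments by TMM (1618.5), had the lowest. By number it averaged 1642.1 CPM in number 3, 1719.9 in number 2 and 1370.3 in number 1. Tgtp1, Gbp6, Ifi44, Mx1 and Oas2 had few reads, and genes that overlap others are uncertain. With 3 libraries per label, and labels that Cyp24a1 contradicts, changes between treatments smaller than the intervals given could not be detected.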
